A study of Drosophila melanogaster with 15 samples.

Results

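Imp, Syp, lin-28, br, Eip93F and mamo are 6 regulators that mark developmental time in Drosophila melanogaster, and their transcripts were followed through RNA sequencing libraries of sorted somatic testis cells. They were chosen by name from the deposited count table, and all 6 were found among its 17408 genes. There were 15 libraries in 5 groups of 3, each made from 50 to 100 flies (100 to 200 testes). All males carried tj-Gal4 and a nuclear GFP (UAS-GFPnls), and cells in which this driver had switched on GFP were collected with a cell sorter. The driver follows traffic jam (tj), a transcription factor gene of the cyst lineage, the somatic cells that begin as cyst stem cells beside the hub and go on to enclose the germ line. Upd males also had UAS-Upd, which makes the JAK/STAT ligand Unpaired, and a third-chromosome UAS-GFP. Chinmo males had a UAS-chinmo transgene flanked by its own UTRs together with tub-gal80TS, a temperature-sensitive brake on Gal4 that no other group carried. Ci males had UAS-Ci5Ncm5 and UAS-Ci5m30, forms of the Hedgehog transcription factor Cubitus interruptus. The fourth group, labelled Chinmo_RNAi, had the hairpin HMS00036 against chinmo and UAS-dcr2. WT males had only the driver and 2 GFP copies. The libraries labelled chinmo RNAi came from flies of 2 or 3 days and all others from flies of 10 days, so age, UAS-dcr2 and the hairpin cannot be told apart there. Nothing in the labels says whether the libraries of a group were separate collections, so p-values measure the spread between these samples, which may be technical.

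In neural stem cells of the fly brain, the RNA-binding proteins Imp and Syncrip (Syp) form opposing gradients. Imp is high early and favours chinmo mRNA, and Syp is high late and opposes it. Broad (br) and E93 (Eip93F) are ecdysone-responsive transcription factors, and with chinmo they are known as a series that specifies larval, pupal and adult identity. Lin-28 is an RNA-binding protein that blocks maturation of the microRNA let-7, and mamo is a BTB zinc-finger gene, like br and chinmo, that acts in the female germ line and in the fate of mushroom body neurons. In the testis, Chinmo is known for keeping the male identity of cyst stem cells, and Imp in the hub is known for shielding upd mRNA from small RNAs.

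Coordinates are from the BDGP6.54 annotation (dm6 assembly). Imp lies on chromosome X at 10787869 to 10824277 (minus strand, 12 annotated transcripts), br on X at 1575132 to 1664869 (plus strand, 16 transcripts) and mamo on X at 13846116 to 13990527 (minus strand, 7 transcripts). Syp lies on 3R at 20756729 to 20810726 (plus strand, 20 transcripts) and Eip93F on 3R at 21949114 to 22014539 (plus strand, 3 transcripts). lin-28 is the compact member, with 1 transcript on 3L at 5654681 to 5657384 (plus strand) and a protein of 195 residues. The others are long genes, and their merged exons span 11225 bases in Syp to 29476 bases in mamo, against 1152 bases in lin-28. Counts were summed per gene, so isoforms are not separated. Of the exonic bases of Imp 14.4% lie within noncoding genes in this annotation, where reads can be left unassigned, and br shares 0.936% with a gene on the other strand. The other 4 members share no exonic base.

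Counts assigned to genes ranged from 1143049 to 2943120 per library. Levels are CPM, counts scaled to library size with TMM factors. Chinmo 3 stood apart, with counts in 4983 genes against 8109 to 13229 in the other 14 libraries and with 32.3% of its counts in ribosomal RNA genes. Among 7 cyst lineage markers none was without counts in WT, but tj lay at only 0.475 to 16.9 CPM there and zfh1, a factor of cyst stem cells, at 10.9 to 23.6 CPM. eya, a marker of differentiating cyst cells, lay at 216 to 342 CPM. Transcripts of the manipulated genes were higher in Upd (upd1, 195.5 ± 16.7 CPM, against 6.78 ± 4.64 in WT), in Ci (ci, 329 ± 164, against 27.6 ± 7.98) and in Chinmo (chinmo, 418 ± 331, against 71.9 ± 2.87; SD, n = 3 each). In the libraries labelled chinmo RNAi chinmo was not measured as reduced (117 ± 48.3 CPM), and each direction given for them carries that limit.

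Upd libraries differed from WT in 5 of the 6 genes. Imp, lin-28 and br rose, Syp and Eip93F fell, and mamo did not pass the test. Of these, lin-28 entered the test only through the Upd libraries, so its call followed in part from the filter on low counts. Every gene was tested with edgeR's quasi-likelihood F test and called at a Benjamini-Hochberg adjusted p below 0.05 over all 10056 genes. In Upd against WT 34.5% of these were called (9.22% higher and 25.3% lower).

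Imp had 751, 695 and 621 CPM in Upd 1, 2 and 3, against 150, 117 and 155 CPM in WT 1, 2 and 3. All Upd libraries lay above all WT libraries. The log2 fold change was 2.29 ± 0.40 (SE; 4.90-fold), with an edgeR adjusted p of 0.000123. Syp had 102, 133 and 104.5 CPM in Upd, against 702, 767.5 and 812 CPM in WT. Each Upd library was below each WT library, and the change was -2.75 ± 0.37 on the log2 scale (6.71-fold lower, edgeR adjusted p = 5.39e-06). Among 9979 tested genes ranked by CPM per kilobase of merged exon, Imp stood at percentile 90.9 in Upd and 47.5 in WT. Syp stood at percentile 52.2 in Upd and 87.5 in WT, so the 2 RNA-binding protein genes held opposite places in the 2 groups.

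lin-28 had 60.7, 36.1 and 40.8 CPM in Upd 1, 2 and 3, against 1.54, 0 and 0 CPM in WT 1, 2 and 3. It rested on 386 counts in Upd and on 3 in WT, all of them in WT 1. The ratio of summed counts was 98.7, with a 95% interval of 33.5 to 481 (exact binomial, counting error only). The fitted log2 fold change was 6.42 ± 1.44 (SE, edgeR adjusted p = 0.00183). Without WT 1 it was 9.65, a value that depends on the prior count since the remaining WT libraries had no count. lin-28 passed the filter on low counts only through Upd, so some difference followed from the filter. Chinmo and the libraries labelled chinmo RNAi had no count at all, which allows up to 0.904 and 0.594 CPM (3 counts over the group). Ci had 0, 0.701 and 2.13 CPM. Upd was the only group with more than 8 lin-28 counts.

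br had 83.9, 83.5 and 108 CPM in Upd 1, 2 and 3, against 7.70, 5.17 and 9.496 CPM in WT 1, 2 and 3. The groups did not overlap, and the log2 fold change was 3.61 ± 0.97 (SE; 12.2-fold, edgeR adjusted p = 0.00548). Eip93F had 6.39, 3.16 and 1.25 CPM in Upd, against 151, 81.6 and 110 CPM in WT. These were 16, 9 and 4 counts in Upd, the lowest Eip93F counts of the 15 libraries. The log2 fold change was -4.99 ± 0.65 (31.7-fold lower, edgeR adjusted p = 4.02e-06), and -5.66 without Upd 1. mamo had 30.0, 39.3 and 27.1 CPM in Upd, against 19.5, 8.75 and 32.3 CPM in WT. The groups overlapped, and the log2 change of 0.67 ± 0.74 (edgeR adjusted p = 0.515) has a 95% interval of -0.85 to 2.20. Libraries of Upd and WT did not overlap for 5 of the 6 genes, while 67.5% of all tested genes did not overlap either.

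**Figure D1:**
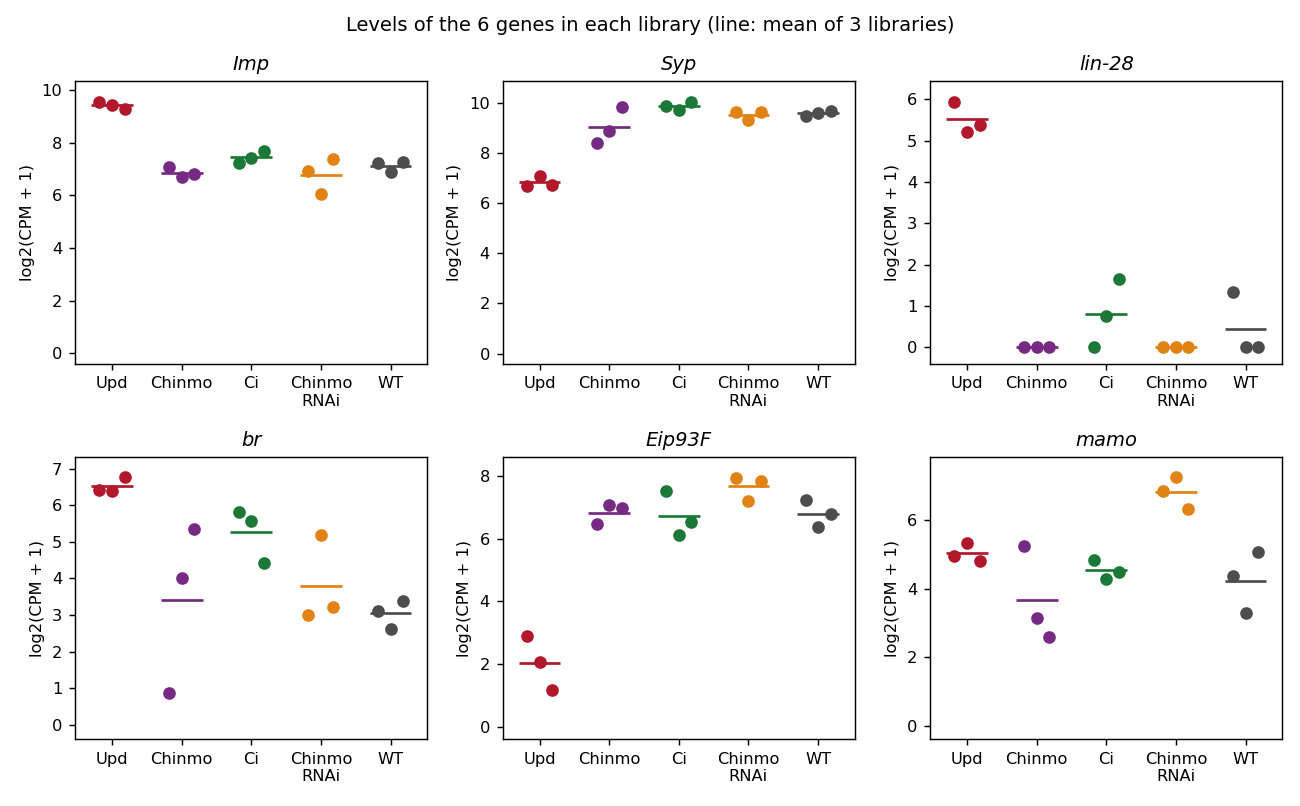
Level of each gene in each of the 15 libraries as log2(CPM + 1), with 1 point per library and a line at the mean of the 3 points of a group, Upd first and WT last. In Upd, Imp, lin-28 and br are high and Syp and Eip93F low, while mamo is highest in the libraries labelled Chinmo_RNAi.

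A ratio of 2 genes within a library does not depend on how libraries are scaled. The log2 ratio of Imp to Syp counts was 2.87, 2.38 and 2.57 in Upd 1, 2 and 3, against -2.23, -2.71 and -2.39 in WT 1, 2 and 3. In the other 9 libraries it ran from -3.27 to -1.32. Imp therefore outnumbered Syp in the 3 Upd libraries and in none of the other 12. Per kilobase of exon, Imp was 4.29 to 6.04 times as abundant as Syp in Upd, against 0.126 to 0.176 times in WT. The log2 ratio of br to Eip93F counts was 3.67, 4.65 and 6.26 in Upd, against -4.25, -3.93 and -3.50 in WT. Ci lay above WT without overlap, at -1.70, -0.55 and -2.16. Chinmo spread from -6.14 to -1.62 and the libraries labelled chinmo RNAi from -5.07 to -2.05, and both ranges held that of WT. No test was made on these ratios, since the pairs were chosen with the results known.

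**Figure D2:**
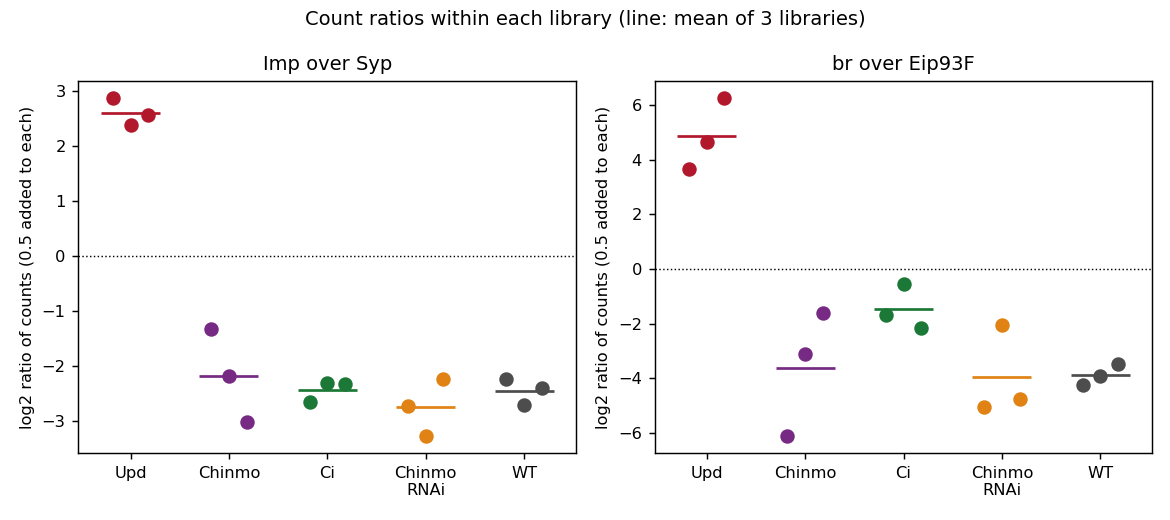
Log2 ratio of Imp to Syp counts (left) and of br to Eip93F counts (right) in each library, with 0.5 added to each count, a line at the mean of 3 libraries and a dotted line at equal counts. Only the Upd points lie above that line, at 2.38 to 2.87 for Imp over Syp and 3.67 to 6.26 for br over Eip93F.

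Germline transcripts moved with the Upd group. Of 15 early germline markers 13 rose in Upd against WT, and their summed level was 2919 to 3335 CPM in Upd, against 139 to 265 CPM in WT, with none of the 15 at 0 in either group. bam and ovo, among the 13, passed the filter on low counts only with the Upd libraries. Of 16 tested markers of spermatocytes and spermatids 11 fell, with sums over 17 markers of 177 to 249 CPM in Upd, against 4361 to 7666 CPM in WT, and ProtA was at 0 in Upd. Cyst lineage markers moved as well, with 6 of 7 higher and eya lower (sums of 2009 to 2656 CPM in Upd, against 354 to 511 CPM in WT). Muscle markers, summed over 6, had 11.9 to 19.6 CPM in Upd, against 191 to 267 CPM in WT. Hub markers summed to 606 to 674 CPM in Upd, against 101 to 180 CPM in WT. The higher sum lay in upd1, the manipulated gene, and in CadN, which the cyst lineage list also holds, while Fas3 and hh were lower. Hemocyte markers summed to 139 to 157 CPM in Upd, against 246 to 450 CPM in WT, with crq lower and He at 0 in both. Neuronal markers summed to 124 to 205 CPM in Upd, overlapping WT (54.4 to 151 CPM). Of the 3 tested, elav and para were higher in Upd and nSyb was lower. In bulk samples fewer cells of a type and less RNA per cell cannot be told apart. With the early germline and the late germline score of each library as covariates none of the 6 genes, and none of the 10056 genes tested, was called in Upd against WT. The log2 changes were then 0.68 for Imp, -3.35 for Syp, 5.56 for lin-28, -1.36 for br and -7.03 for Eip93F, so Imp was smaller and br had the other sign, while Syp and Eip93F were larger in size than without the scores and lin-28 was smaller. With the late score alone Syp and Eip93F stayed called (2 of 6, among 413 genes). With the early score alone none of the 6 was called, and 1 gene was called in all. The log2 changes were then 0.47 for Imp, -2.19 for Syp, 4.49 for lin-28, 6.69 for br and -5.28 for Eip93F. Group membership accounted for 95.9% of the variance of the early score and 89.5% of the late one, so the part of germline transcripts and that of the Upd group cannot be told apart.

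**Figure D3:**
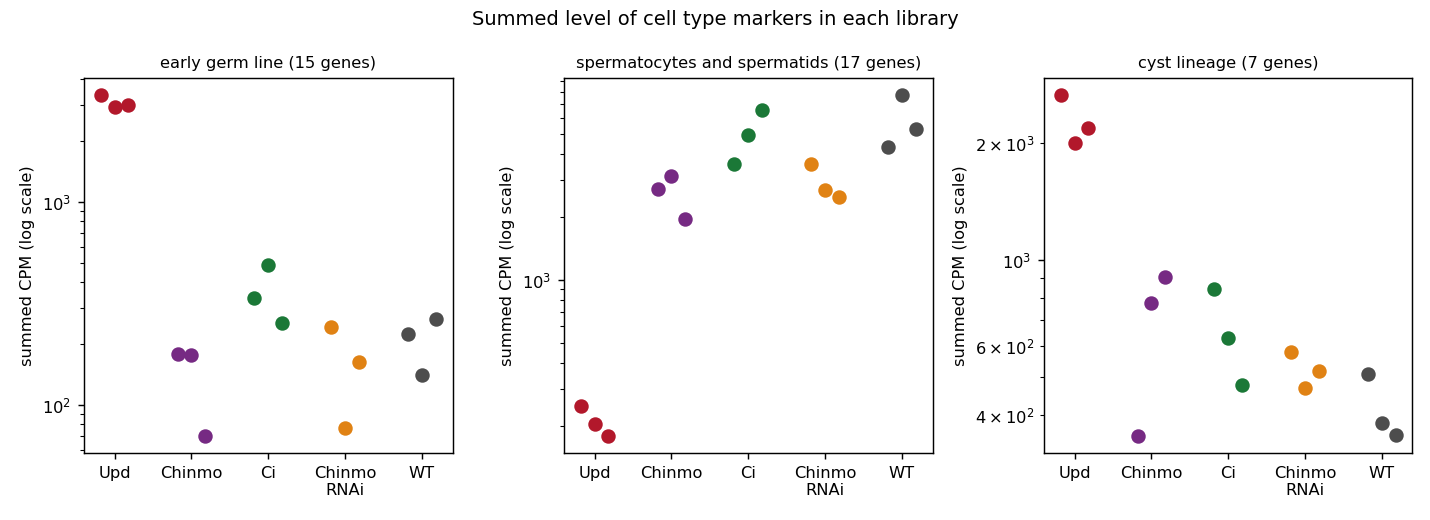
Summed CPM of the markers of early germ line, spermatocytes and spermatids, and cyst lineage in each library, on log axes, Upd first and WT last. Upd holds the highest early germline sums (2919 to 3335 CPM) and the lowest spermatocyte and spermatid sums (177 to 249 CPM).

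Extra Chinmo was not accompanied by a called change in any of the 6 genes. edgeR called 0 of 6 against WT, where 2.8% of all genes were called, and 0 had an unadjusted p under 0.05. DESeq2 and limma-voom called 0 as well. Imp had 133, 103 and 111 CPM in Chinmo 1, 2 and 3, against 150, 117 and 155 CPM in WT 1, 2 and 3, and the groups overlapped (log2 change -0.28, 95% interval -1.07 to 0.51). Eip93F had 87.5, 133 and 125 CPM in Chinmo, within the spread of WT around the same mean (log2 change 0.01, 95% interval -1.10 to 1.12). The Chinmo libraries were far apart in the other genes. Syp had 333, 468 and 902 CPM in Chinmo 1, 2 and 3, and Chinmo 3 lay above all WT libraries (log2 change -0.42 ± 0.34, SE, edgeR adjusted p = 0.474). Leaving out Chinmo 3 gave -1.19 and a call for Syp (edgeR adjusted p = 0.0496, against 0.346 to 0.819 with any other single library left out). br had 0.834, 15.2 and 39.9 CPM, below, above and above the WT range (log2 change 1.26 ± 0.93, edgeR adjusted p = 0.425), and its change was -0.11 with Chinmo 3 left out. mamo had 36.7, 7.90 and 4.99 CPM, with overlap (log2 change -0.26 ± 0.75, edgeR adjusted p = 0.881). Counts of the chinmo gene, which do not separate the transgene from the endogenous gene, were 100.1, 392 and 761 CPM in the same order. Among the 3 Chinmo libraries, Chinmo 3, the one with the fewest genes detected, thus had the highest CPM of chinmo, Syp and br and the lowest of mamo. That order leans on scaling, as the TMM factor of Chinmo 3 was 0.528. Raw counts in Chinmo 2 and 3 were 710 and 543 for Syp and 23 and 24 for br. mamo in Chinmo 3 was 3 counts, the floor of that library, and br in Chinmo 1 was 1 count. Summed early germline markers of Chinmo 1, 2 and 3 ran from 69.8 to 177 CPM, with bam and zpg at 0, against 139 to 265 CPM in WT. Cyst lineage markers summed to 352, 774 and 906 CPM in Chinmo 1, 2 and 3, against 354 to 511 CPM in WT, and of these 7 only chinmo was called. The manipulated gene chinmo is itself in this sum. It made up 100.1, 392 and 761 CPM of the Chinmo sums, against 69.8 to 75.2 CPM in WT. In Chinmo 3 tj, zfh1 and Wnt4 were at 0 and CadN at 1.66 CPM, while eya had 133 CPM. Hub markers summed to 110, 134 and 8.31 CPM in Chinmo 1, 2 and 3, against 101 to 180 CPM in WT. Only Chinmo 3 lay below WT, and 0 of 4 were called in Chinmo. Spermatocyte and spermatid markers summed to 1969 to 3140 CPM in Chinmo, against 4361 to 7666 CPM in WT, with comr at 0, muscle markers to 13.3 to 120.5 CPM, against 191 to 267 CPM in WT, with up at 0, and hemocyte markers to 534 to 942 CPM, against 246 to 450 CPM in WT, with He at 0. Of the spermatocyte and spermatid, muscle and hemocyte lists 1 of 16, 0 of 4 and 0 of 3 tested markers were called. The part of all these marker lists in the spread of Chinmo was not tested.

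Activated Ci also gave no called change, as 0 of 6 genes and 0.00994% of all genes (1 gene, ci) passed edgeR's test against WT. br was the 1 member with an unadjusted p under 0.05, and DESeq2 and limma-voom called 0 members. br had 55.7, 46.3 and 20.5 CPM in Ci 1, 2 and 3, all above the highest WT library. Its log2 fold change was 2.45 ± 0.93 (SE; 5.45-fold, edgeR adjusted p = 1), with a 95% interval of 0.53 to 4.36. Syp had 934, 842 and 1042 CPM in Ci, again above all WT libraries, but the difference was small (log2 change 0.30 ± 0.34, edgeR adjusted p = 1). Such gaps between groups were seen for 2 of the 6 genes and for 12.2% of all genes. Imp had 149, 171 and 208 CPM in Ci (log2 change 0.32, 95% interval -0.47 to 1.11). Eip93F had 182, 68.0 and 92.2 CPM, on both sides of the WT mean (log2 change within 95% limits of -1.11 and 1.102). mamo had 27.6, 18.5 and 21.3 CPM (0.16, 95% interval -1.37 to 1.68). In all 3, Ci overlapped WT. The early germline sum was 252 to 489 CPM in Ci, against 139 to 265 CPM in WT. The sum of 7 cyst lineage markers was 478 to 841 CPM in Ci, against 354 to 511 CPM in WT. Among them tj (46.9 CPM in Ci, 6.34 CPM in WT), zfh1, Wnt4, CadN, puc and chinmo lay above all WT libraries. eya overlapped WT, and 0 of the 7 were called. The part of these markers in the br difference was not tested.

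In the libraries labelled chinmo RNAi, mamo was the member set apart. It had 114, 151 and 79.5 CPM in libraries 1, 2 and 3, against 19.5, 8.75 and 32.3 CPM in WT 1, 2 and 3. The groups did not overlap, as for 36.1% of all genes. The log2 fold change was 2.51 ± 0.77 (SE; 5.69-fold, 95% interval 0.91 to 4.10), and the edgeR adjusted p of 0.0507 just missed the threshold. edgeR thus called 0 of 6 members, where 6.76% of all genes were called, and mamo was the 1 member with an unadjusted p under 0.05. DESeq2 (adjusted p = 0.00439) and limma-voom (adjusted p = 0.00934) called it. Over the single libraries left out the edgeR adjusted p ran from 0.00876 to 0.208. Eip93F had 247, 147 and 228 CPM, with WT 1 within that range (log2 change 0.86 ± 0.54, edgeR adjusted p = 0.352). br had 7.05, 35.3 and 8.26 CPM, with library 2 above the rest (1.17 ± 0.91, edgeR adjusted p = 0.47). Imp had 122, 65.5 and 167 CPM (-0.25, 95% interval -1.04 to 0.54) and Syp 801, 637 and 782 CPM (-0.04, 95% interval -0.75 to 0.67), both overlapping WT. Several lists of summed markers also stood clear of WT in these libraries. The sum of 4 hub markers was 472 to 523 CPM, against 101 to 180 CPM in WT, and lay in Fas3 and hh, while upd1 and CadN overlapped WT. Hemocyte markers summed to 725 to 833 CPM, against 246 to 450 CPM in WT, with He at 0 in both, and neuronal markers to 231 to 407 CPM, against 54.4 to 151 CPM in WT. None of the tested markers of these 3 lists (0 of 4, 0 of 3 and 0 of 3) passed edgeR's test. Spermatocyte and spermatid markers summed to 2507 to 3595 CPM, against 4361 to 7666 CPM in WT, with 3 of 16 lower and aly and comr at 0, and muscle markers to 138 to 172 CPM, against 191 to 267 CPM in WT, with 0 of 4 called. Early germline markers summed to 76.5 to 240.5 CPM, overlapping WT (139 to 265 CPM), with nos and zpg at 0. Of these 15 markers 2 were called, AGO3 and bgcn, both lower, where 6.76% of all genes were called. The part of all these markers in the mamo difference was not tested.

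**Figure D4:**
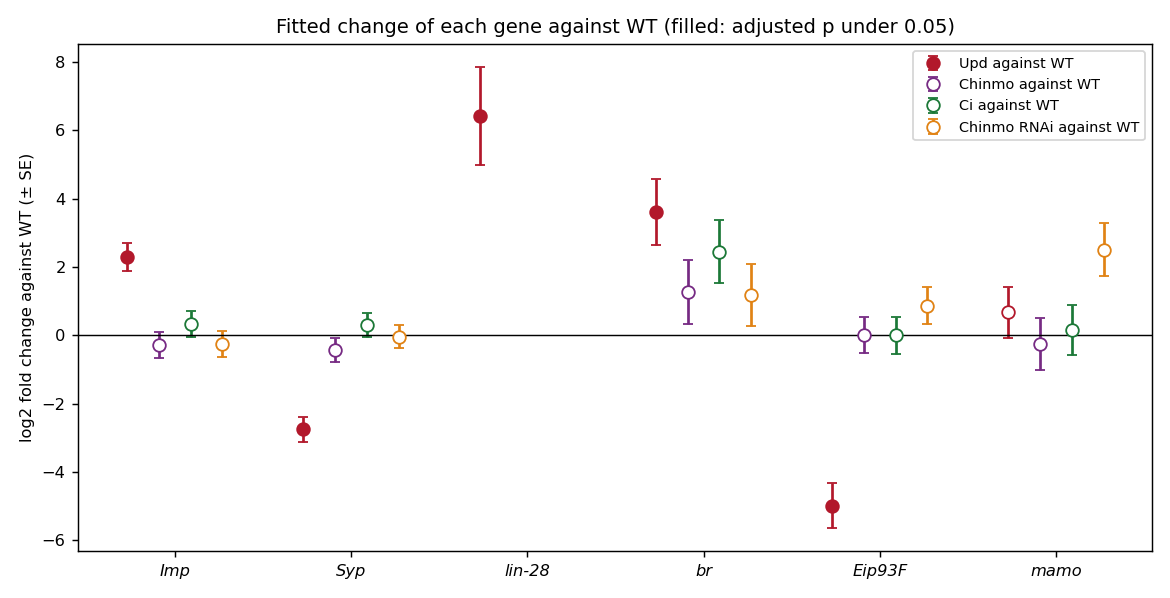
Log2 fold change of each gene against WT with its standard error, for Upd, Chinmo, Ci and Chinmo RNAi, filled where the edgeR adjusted p is under 0.05 and drawn for lin-28 only in Upd because the other groups had 0 to 8 counts. The filled points are the 5 genes called in Upd.

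Set in order of mean level, Imp ran from Upd (689 CPM) through Ci, WT and the libraries labelled chinmo RNAi to Chinmo (116 CPM). The only neighbours in that order without overlapping libraries were Upd and Ci. For Syp the order was Ci (939 CPM), WT, the libraries labelled chinmo RNAi, Chinmo (567.5 CPM) and Upd (113 CPM). Here Ci and WT did not overlap but were not called different, and Chinmo and Upd were called. Eip93F was highest in the libraries labelled chinmo RNAi (207 CPM), followed by Chinmo (115.1 CPM), Ci (114 CPM) and WT (114 CPM), and lowest in Upd (3.60 CPM). Its first pair and its last pair of neighbours did not overlap, and of these only WT and Upd were called different. br was highest in Upd (91.6 CPM), then Ci (40.8 CPM), Chinmo (18.6 CPM), the libraries labelled chinmo RNAi (16.9 CPM) and WT (7.46 CPM). Of these neighbours only Upd and Ci did not overlap, and they were not called different. mamo was highest in the libraries labelled chinmo RNAi (114.9 CPM), then Upd (32.1 CPM), Ci, WT and Chinmo (16.5 CPM), and only the first pair did not overlap, without a call.

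Between the manipulations, the Upd libraries again stood apart in the same 5 genes, though not every pair passed. These comparisons share the Upd libraries with the one against WT, so they do not count as separate evidence. lin-28 passed the filter on low counts only through Upd, so its part in these counts of calls followed in part from the filter. In Chinmo against Upd 5 of 6 genes were called, among 38.6% of all genes. Imp was lower in Chinmo (log2 change -2.57 ± 0.40, SE) and Syp higher (2.32 ± 0.36; edgeR adjusted p = 4.21e-05 and 3.64e-05). Eip93F was higher in Chinmo (4.999 ± 0.65, edgeR adjusted p = 3.7e-06) and lin-28 at least 49.9-fold lower, taking 3 counts over Chinmo as the floor. br was lower in Chinmo by an uncertain margin (-2.35 ± 0.93, edgeR adjusted p = 0.0485), and that call was lost without Chinmo 1, Chinmo 2, the third library labelled chinmo RNAi or any 1 library of Upd, Ci or WT (edgeR adjusted p from 0.0504 to 0.126). In Upd against Ci 4 of 6 were called, among 29.3% of all genes. Imp was higher in Upd (1.97 ± 0.39, edgeR adjusted p = 0.000509), Syp lower (-3.05 ± 0.37, edgeR adjusted p = 1.66e-06) and Eip93F lower (-4.98 ± 0.65, edgeR adjusted p = 4.5e-06). The lin-28 ratio of summed counts was 50.0 (95% interval 25.1 to 117, counting error only). br was not called there (1.17 ± 0.87, edgeR adjusted p = 0.342).

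Upd against the libraries labelled chinmo RNAi gave 5 calls of 6, among 30.2% of all genes, and lin-28 again entered the test only through Upd. Imp (2.54 ± 0.40) was higher in Upd, Syp (-2.71 ± 0.37) and Eip93F (-5.85 ± 0.67) were lower, with edgeR adjusted p from 6.73e-07 to 4.81e-05, and lin-28 was at least 75.9-fold higher against the same floor of 3 counts. br passed narrowly (2.44 ± 0.92, edgeR adjusted p = 0.0469), and without any 1 library of Upd, Ci or WT, or without library 1 or 3 labelled chinmo RNAi, its edgeR adjusted p was 0.0541 to 0.15. mamo was lower in Chinmo than in the libraries labelled chinmo RNAi (-2.77 ± 0.79, edgeR adjusted p = 0.0499, the 1 call of 6 among 3.78% of all genes). That call was lost without Chinmo 2 and without any 1 library of the other 4 groups (edgeR adjusted p from 0.0593 to 0.125). mamo missed the threshold in Upd (-1.84 ± 0.75, edgeR adjusted p = 0.0669) and in Ci (-2.35 ± 0.76, edgeR adjusted p = 0.0501) against the same libraries. edgeR called 0 of 6 in Ci against these libraries (10.6% of all genes) and 0 of 6 in Chinmo against Ci (8.07% of all genes), with 1 unadjusted p under 0.05 in each. limma-voom called 1 in each, and DESeq2 1 in Ci against the libraries labelled chinmo RNAi and 0 in Chinmo against Ci.

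Related genes were followed as lists, read against the shares of all genes called and against the median log2 change of all genes, which was -0.07 in Upd against WT. Of 14 other BTB family genes, relatives of br and mamo, 6 rose and 1 fell in Upd against WT, with a median log2 change of 1.77. Over all genes 9.22% rose and 25.3% fell. lola, which encodes many alternative zinc-finger proteins, had 1118 CPM in Upd and 205 CPM in WT (log2 change 2.45 ± 0.37, SE, edgeR adjusted p = 2.68e-05). chinmo had 607 CPM in Upd and 71.9 CPM in WT (3.08 ± 0.55, edgeR adjusted p = 0.000153). The insulator protein gene Cp190 (230 CPM in Upd, 38.6 CPM in WT) and lolal, which encodes a partner of GAGA factor (254 CPM in Upd, 70.6 CPM in WT), rose too. In the libraries labelled chinmo RNAi 1 of 14 rose, which was lola (464 CPM, against 205 CPM in WT, edgeR adjusted p = 0.0482), with a list median of 0.997 and a median of -0.06 over all genes. In Chinmo 1 of 14 rose, which was chinmo, the manipulated gene, and in Ci 0 of 14 passed. The shares of all genes called were 6.76% in the libraries labelled chinmo RNAi, 2.8% in Chinmo and 0.00994% in Ci.

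**Figure D5:**
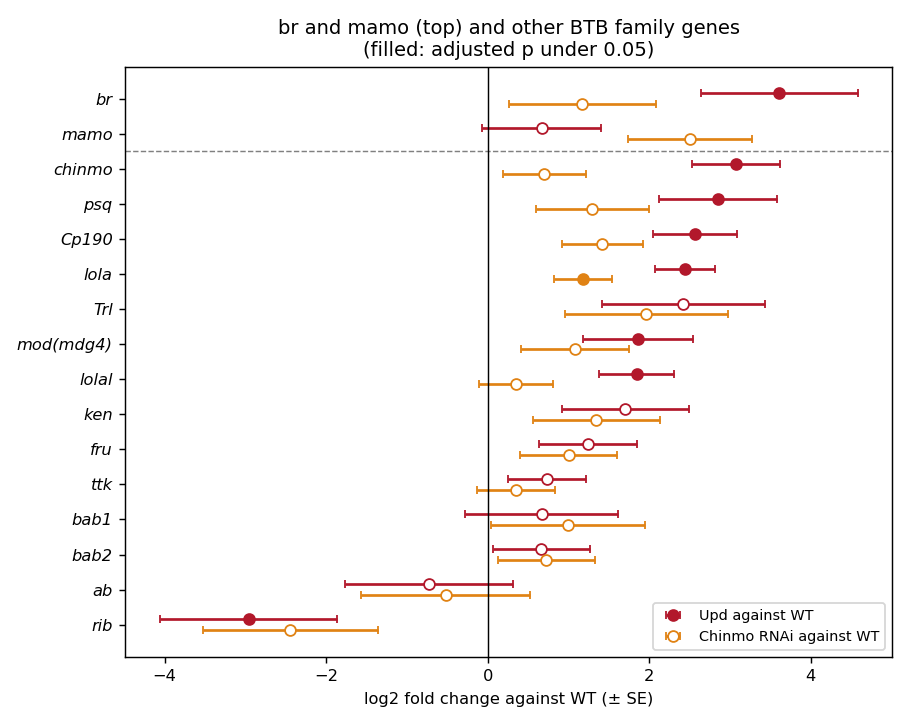
Log2 fold change against WT with standard error for br and mamo (top) and for 14 other BTB family genes, in Upd and in the libraries labelled Chinmo RNAi, filled where the edgeR adjusted p is under 0.05. br is filled in Upd only and mamo in neither.

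Of 18 tested RNA-binding protein genes of the kind of Imp and Syp, 5 rose and 2 fell in Upd against WT, where 9.22% of all genes rose and 25.3% fell. Hrb27C, an hnRNP gene, had 2416 CPM in Upd and 631 CPM in WT (log2 change 1.94 ± 0.37, SE, edgeR adjusted p = 0.000307), and sqd, another hnRNP gene, had 1076 CPM in Upd and 349.5 CPM in WT. orb2, a translational regulator, fell to 28.3 CPM in Upd, against 360 CPM in WT (-3.66 ± 0.48, edgeR adjusted p = 4.54e-06). nos, itself an early germline marker, rose to 94.8 CPM in Upd, against 3.99 CPM in WT. In Chinmo 2 of 18 fell, orb2 and aret (2.8% of all genes were called), and in the libraries labelled chinmo RNAi 1 fell, orb (6.76% of all genes), while 0 passed in Ci.

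Of 10 tested genes of microRNA and heterochronic regulation 4 rose in Upd against WT and 0 fell, where 9.22% of all genes rose and 25.3% fell. The median log2 change of the list was 1.09, against -0.07 over all genes. AGO1, the microRNA effector, had 308 CPM in Upd and 96.8 CPM in WT, and brat, a translational repressor, had 303 CPM in Upd and 104 CPM in WT. mei-P26 and pasha also rose. let-7-C, the precursor locus that Lin-28 acts on in its known role, was chosen after its values were seen. It had 0.786 CPM in Upd and 7.08 CPM in WT (log2 change -3.06 ± 1.27, SE, edgeR adjusted p = 0.0644), so it did not pass.

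Of 9 tested neural temporal factors, among 21 listed, 3 rose and 2 fell in Upd against WT, where 9.22% of all genes rose and 25.3% fell. nub fell to 0.737 CPM in Upd, against 27.8 CPM in WT, while Kr (12.1 CPM in Upd, 0.329 CPM in WT), dati (11.3 CPM in Upd, 0.5004 CPM in WT) and ey (7.05 CPM in Upd, 0.329 CPM in WT) rose and were near 0 in WT. Kr and ey passed the filter on low counts only with the Upd libraries, so some difference followed from the filter. Of 14 ecdysone and juvenile hormone genes ftz-f1 (82.2 CPM in Upd, 10.0 CPM in WT) and Eip75B (346 CPM in Upd, 126 CPM in WT) rose, both nuclear receptor genes, and 0 fell. Of 10 Activin and related receptor genes Actbeta, a ligand gene, rose in Upd (7.08 CPM, against 0.133 CPM in WT), again a gene that passed the filter only with the Upd libraries. The shares of 2 of 14 and 1 of 10 lie near the share of all genes that rose. The receptor gene babo rose in the libraries labelled chinmo RNAi (328 CPM, against 122 CPM in WT, edgeR adjusted p = 0.0497). It was the 1 call of 10 there, where 6.76% of all genes were called. In Chinmo and in Ci 0 genes of these 3 lists, or of the microRNA and heterochronic list, passed against WT. Over all genes 2.8% were called in Chinmo and 0.00994% in Ci.

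The genes most like each member were found by Pearson correlation of log2 CPM over the 15 libraries, among 3963 genes with a symbol and a mean of at least 10 CPM. These libraries form groups, and Upd sets much of each value, so r over the other 12 libraries is given as well. For Imp the nearest were CadN, a cadherin gene (r = 0.948, and 0.821 without Upd), SF2, a splicing factor gene (0.94 and 0.715), and foxo (0.938 and 0.508). For Syp they were Ppi1 (0.983 and 0.872), sm, an hnRNP gene (0.958 and 0.682), and Adk3 (0.956 and 0.584). For lin-28 they were Her (0.956 and 0.305), zpg, a germline innexin gene (0.944 and 0.723), and foxo (0.932 and 0.252). Outside Upd lin-28 had only 8 counts in Ci, 3 in WT and none in the other groups. Its r without Upd therefore rests on a few counts at the floor and carries little information. For Eip93F they were ATP8B (0.991 and 0.838), emp, a scavenger receptor gene (0.982 and 0.659), and NimA (0.981 and 0.637). br had weaker likeness, with Arp5 (0.876 and 0.83), msl-3, a dosage compensation gene (0.873 and 0.799), and DMAP1 (0.86 and 0.769). mamo differed from the others in that its r did not drop without Upd, with zyd (0.887 and 0.926), pon (0.865 and 0.892) and the polarity gene scrib (0.854 and 0.854). The group where mamo was highest, the libraries labelled chinmo RNAi (114.9 CPM), stays in both values. No r without that group was computed, so how far it sets them was not tested.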

How the data were processed

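Whole-number counts per gene were deposited by the authors for 15 libraries of polyadenylated RNA. The submitters' processing notes list STAR, HTSeq, Picard, bcl2fastq and DESeq2, with dm6 and BDGP6 as builds. Their versions, annotation release and strand setting were not given in sources used here. Reads assigned to no gene took 7.01% to 17.0% of all reads counted and ambiguous reads 13.5% to 26.8%, and both were left out. The 6 genes and all lists were chosen with earlier results of these data known, and no gene list counts as independent evidence. Genes kept by edgeR's filterByExpr (10056) were scaled by TMM and fitted together, all 15 libraries with a mean for each group, by robust glmQLFit of edgeR 4.0.16 under R 4.3.3. SEs come from the F statistic and 95% intervals from its degrees of freedom. Genes named from a list were up to 4 called with the smallest adjusted p, and those named for likeness were the 3 highest correlations. Symbols of 17235 of 17408 genes matched the annotation, 4332 of them by a synonym. Replicates differed by more than counting noise (chi-square per gene 5.85 or more), so each library counted once. The fit was tested on simulated data, where most of the changes put in were not called. A gene without a call is therefore not shown to be unchanged. Alternatives were RLE and upper-quartile scaling, no filter, a filter asking for 3 libraries at 5 CPM, limma-voom (limma 3.58.1), DESeq2 1.42.0, the replicate number as a block, germline scores as covariates (2 together as planned, each alone added after the data were seen), only the 2 groups compared, and each library left out. A library's score was its mean log2 CPM over 15 early or 17 late germline markers.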

Additional observations from a re-analysis of the deposited data

How the results depend on the processing

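Upd against WT gave 5 calls under all alternatives but the germline covariates, and 5 with any single library left out. Both germline scores together left 0 calls in Upd against WT, Chinmo against Upd, Upd against Ci, Upd against the libraries labelled chinmo RNAi and Chinmo against those libraries. The early score alone left 0 in the same 5 comparisons. The late score alone left 2 in Upd against WT, 2 in Upd against Ci and 0 in Chinmo against the libraries labelled chinmo RNAi. The cause was not tested, as the scores vary mainly between groups. Against WT, mamo made 1 call in the libraries labelled chinmo RNAi under upper-quartile scaling, no filter, DESeq2, limma-voom and only the 2 groups compared. In Ci against those libraries it made 1 call under upper-quartile scaling, the filter of 5 CPM, DESeq2, limma-voom and only the 2 groups compared. In Chinmo against them the 1 call was lost (0) with only the 2 groups compared. limma-voom gave 1 call in Chinmo against Ci. Single libraries left out gave 0 to 1 calls in Chinmo against WT, Chinmo against Ci, the libraries labelled chinmo RNAi against WT, and Ci or Chinmo against those libraries, 4 to 5 in Chinmo against Upd, 4 to 6 in Upd against the libraries labelled chinmo RNAi, 4 in Upd against Ci and 0 in Ci against WT.

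The replicate number as a block gave 5 calls in Upd against WT, 4 in Upd against Ci, Chinmo against Upd and Upd against the libraries labelled chinmo RNAi, and 0 in Chinmo against these libraries. Over all genes Chinmo against WT had 11 calls with the block and 282 without it. Same-numbered libraries of different groups had deviations correlated at -0.0813 to 0.295, over 0.1 in 2 of 30 pairs, so the numbers were not taken to pair them.

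Changes of sign were limited to values without a call and to br under a germline score. br was -1.36 in Upd against WT, -3.61 in Upd against Ci, -0.082 in Upd against the libraries labelled chinmo RNAi and 0.30 in Chinmo against Upd with both scores, and -0.56 in Upd against WT and -2.94 in Upd against Ci with the late score. With both scores mamo was -2.10 (Upd) and -0.089 (Ci) against WT, Imp 0.42 (Chinmo), -0.0053 (Ci) and 0.36 (chinmo RNAi), br -1.06 (Chinmo) and -1.28 (chinmo RNAi) and Eip93F -0.10 (Chinmo). With the early score Imp was 0.38 (Chinmo), -0.022 (Ci) and 0.32 (chinmo RNAi), and br -0.074 (Chinmo) and -0.27 (chinmo RNAi). With the late score Imp was 0.15 (Chinmo) and 0.16 (chinmo RNAi), br -1.11 (Chinmo) and -1.33 (chinmo RNAi) and Eip93F -0.27 (Chinmo). Eip93F was -0.17 with RLE and -0.17 with DESeq2 in Chinmo, and 0.019 with RLE, 0.019 with DESeq2 and 0.0051 with only the 2 groups compared in Ci. With 1 library left out, changes against WT ranged from -0.30 to 0.18 (Eip93F), -1.59 to 0.25 (mamo) and -0.11 to 1.85 (br) in Chinmo, from -0.51 to 0.23 (Eip93F) and -0.21 to 0.67 (mamo) in Ci, and from -0.59 to 0.036 (Imp) and -0.24 to 0.056 (Syp) in the libraries labelled chinmo RNAi.

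Scaling moved the median log2 change of all genes. In Upd against WT it was -0.07 with TMM and 0.16 with the upper quartile, in Chinmo -0.32 with TMM and -0.61 with RLE, and in the libraries labelled chinmo RNAi -0.06 with TMM and -0.34 with RLE. Counts over all genes moved more than those of the 6. Without germline scores and with all libraries, Upd against WT had 3473 calls and 3223 to 5350 under the alternatives, Chinmo against WT 282 and 1 (only the 2 groups compared) to 1617 (DESeq2), Ci against WT 1 and 1 to 3, and the libraries labelled chinmo RNAi against WT 680 and 358 (block) to 1678 (DESeq2). Adding 2 in place of 0.5 to each count moved no group's mean ratio by more than its SD. lin-28 is limited by depth, as 3 counts in a library are worth 0.701 to 4.99 CPM.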
